A study of Homo sapiens with 16 samples.

Results

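DNA replication copies the genome once per cell cycle, in S phase. In G1, the origin recognition complex, CDC6 and CDT1 load the MCM2 to MCM7 helicase onto DNA (licensing), and CDC45, the GINS complex and MCM10 then turn it into an active helicase. The polymerases, held on DNA by the ring-shaped clamp PCNA that the RFC complex loads, copy both strands. E2F transcription factors drive most of these genes at the G1/S transition, and replication-dependent histone genes are expressed in S phase, so that mRNAs of both groups depend on how many cells are in S phase.

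The 46 genes described here are the components and regulators of this machinery that were listed by symbol, and all 46 were found among the 58302 gene identifiers of the count tables. HEK293, an established human embryonic kidney line that carries adenovirus early genes, was transfected with 100 nM of a small interfering RNA against Gemin5 (siRNAG5), an RNA-binding protein of the SMN complex. The comparison cells (Ctrl) are labelled as untreated, whereas the study describes a control siRNA, so they are known only as lacking the Gemin5 siRNA. For 4 samples of each treatment, RNA came either from the cytoplasmic lysate as such (Input) or from the gradient fractions that held polysomes, which were pooled (Polysome), and cycloheximide was present in both cases. The resulting 16 libraries fall in 4 groups of 4, namely Input Ctrl, Input siRNAG5, Polysome Ctrl and Polysome siRNAG5, and hold strand-specific reads of poly(A)-selected RNA.

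Each library held between 11145324 and 24511299 reads on genes. Levels are in CPM, the usual unit of counts relative to all reads on genes of a library, after TMM scaling, an adjustment for RNA composition, and a gene passed a comparison at a Benjamini-Hochberg adjusted p under 0.05 in the quasi-likelihood test of edgeR over all genes tested. All 10 HEK293 markers examined were detected in each group. The GEMIN5 mRNA itself was at 15.9, 18.9, 16.01 and 20.7 CPM in Input Ctrl and at 7.46, 6.51, 6.23 and 6.68 CPM in Input siRNAG5, and it fell by 1.40 ± 0.12 (SE) on the log2 scale (adjusted p = 3.11e-10) in Input and by 1.44 ± 0.21 (adjusted p = 0.00477) in Polysome. Some libraries stood apart from the others of their group. Summed over 20 liver genes, Input Ctrl 3 and 4 held 162 and 142 CPM against 2.89 and 1.35 CPM in Input Ctrl 1 and 2, the Polysome Ctrl libraries held 86.7 to 179 CPM, and no siRNAG5 library exceeded 1.87 CPM. Summed over 10 blood genes, no library exceeded 2.90 CPM. In Polysome, the first principal component of the deviations from the group means (60.9% of their variance) placed Ctrl 1, Ctrl 2, siRNAG5 1 and siRNAG5 4 at 35.4, 9.78, 26.9 and 31.2, and the other 4 libraries between -29.7 and -19.8, so that this split ran across the treatments. The share of reads that aligned to several places was 4.88 to 6.04% in Input and 21.2 to 42.4% in Polysome.

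The letters of an E2F site were more frequent in the promoters of these genes than in those of other genes, as is known for S-phase genes. The RefSeq promoter table (GRCh38.p14, 250 bases before to 50 after a transcription start) held 40 of the 46 genes. The letters TTTCCCGC, TTTGGCGC, TTTCGCGC or TTTGCCGC, searched on both strands, were present in at least 1 promoter of 20 of these 40 genes (50%), against 3.99% of the 27305 genes of the table and 6.8% of the 10419 of them tested in Input. For CDT1, PCLAF, LIG1, GINS2, PCNA and MCM3, which the comparisons below turn on, 1 site each is shown with its surroundings on the gene's own strand, 5′ to 3′, with the matched letters in capitals. The sites shown lie before a start of this RefSeq table, and MCM3 holds a second match that runs over its start there. Gene spans given below come from GENCODE, whose outermost start can differ. The sites of GINS2, PCLAF and LIG1 lie inside the GENCODE spans of these genes.
CDT1 (chr16:88803743-88803772, + strand, 35 bases before the start): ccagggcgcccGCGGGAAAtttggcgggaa
PCLAF (chr15:64381468-64381497, - strand, 45 bases before the start): ccttggagcgcGCGGGAAAgagaccaatat
LIG1 (chr19:48170440-48170469, - strand, 114 bases before the start): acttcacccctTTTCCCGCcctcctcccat
GINS2 (chr16:85688967-85688996, - strand, 31 bases before the start): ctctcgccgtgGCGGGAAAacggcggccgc
PCNA (chr20:5126663-5126692, - strand, 59 bases before the start): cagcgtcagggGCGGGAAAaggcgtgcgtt
MCM3 (chr6:52284898-52284927, - strand, 174 bases before the start): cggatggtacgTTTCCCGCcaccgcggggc

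The same letters stood in promoters of genes that moved in opposite directions after Gemin5 silencing. Of the genes with a promoter in the table, 7 of 14 that fell in Input, 7 of 11 that rose and 6 of 15 that did not pass held a match. The CCAAT box (CCAAT, both strands) was found for 25 of the 40 genes (62.5%). Of all genes 39.7% held it, and of those tested in Input 43.5%. The CHR letters TTTGAA, which mark many genes of G2 and mitosis, were found for 1 of 40 (2.5%), against 18.2% and 13.3%. A transcript start of C followed by 4 pyrimidines, the letters of a 5′ terminal oligopyrimidine tract, was found for 4 of 40 genes (10%). The shares were 5.14% of all genes and 7.41% of those tested in Input. A match is a run of letters and says nothing of binding in these cells.

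Replication mRNAs were well represented in the control lysates. In Input Ctrl the 46 genes summed to 6090, 6436, 6185 and 6339 CPM, with a median of 100 CPM per gene. PCNA was the most abundant at 706 CPM and PCLAF, a small partner of PCNA, the least at 3.19 CPM (144 reads over the 4 libraries). Per length of the union of exons, PCNA stood at 503, TYMS (thymidylate synthase) at 159, RFC2 at 135 and MCM7 at 118 CPM per kilobase. LIG1 (DNA ligase I) at 2.78 and POLA1, the catalytic subunit of polymerase alpha, at 0.984 CPM per kilobase were among the lowest. These levels depend on the gene model, since with the longest transcript in place of the union 42 of the 46 moved by more than the SD between libraries, LIG1 to 7.32 and MCM7 to 189 CPM per kilobase.

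**Figure D1:**
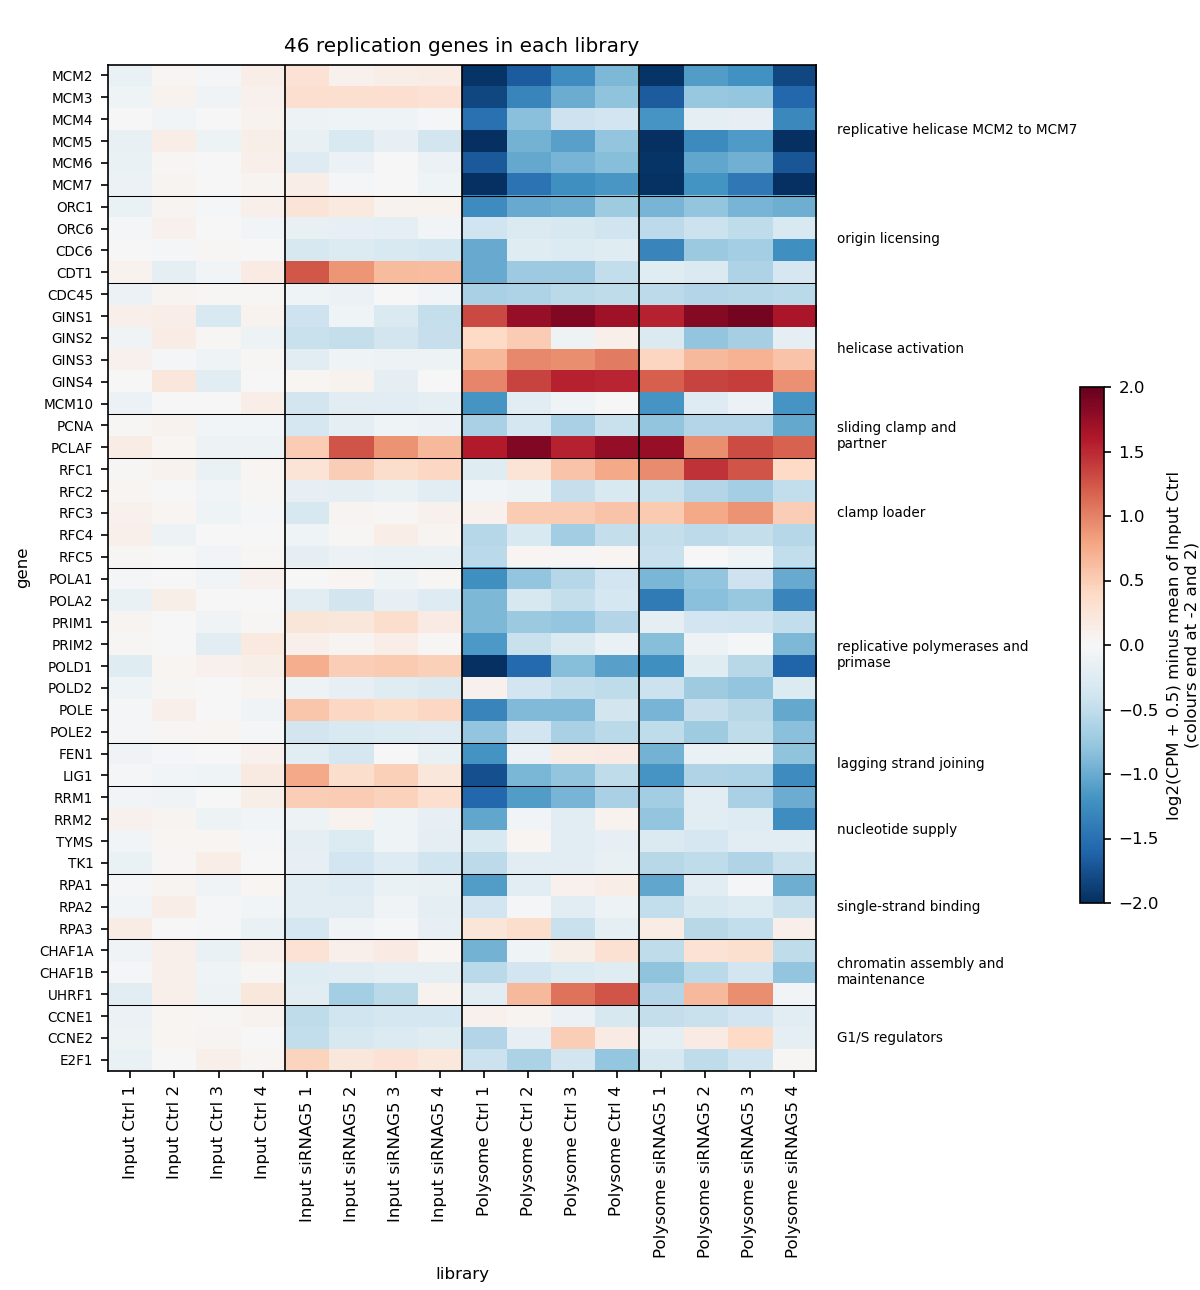
Each of the 46 genes (rows, by role) in each of the 16 libraries (columns), coloured by log2(CPM + 0.5) minus the mean of the gene in the 4 Input Ctrl libraries. CDT1 and PCLAF are red in all 4 Input siRNAG5 libraries, the MCM2 to MCM7 rows are blue in the Polysome libraries of both treatments (MCM4 in siRNAG5 2 and 3 only faintly), and for these rows Polysome Ctrl 1, siRNAG5 1 and siRNAG5 4 are the darkest of their group.

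The first question was how these mRNAs changed in the lysate when Gemin5 was silenced. The replication genes did not move together. Of 46, 16 fell, 11 rose and 19 did not pass, against 19.1% of all 14134 genes tested that fell and 17.9% that rose. Their median log2 fold change was -0.11, against 0.04 over all genes tested. The changes were small, since none of the 16 fell by more than 0.5 on the log2 scale, as 6.02% of all genes did, and only 3 of the 11, PCLAF, CDT1 and POLD1, rose by more than 0.5, as 10.5% of all genes did. The 4 Input siRNAG5 libraries lay entirely below the 4 Input Ctrl libraries for 17 genes and entirely above them for 10, against 19.1% and 15.1% of all genes. As these are bulk samples, fewer cells in S phase and less mRNA per cell cannot be told apart.

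Licensing factors held the clearest rise. CDT1, the helicase loader that is degraded once S phase begins (ENSG00000167513, GRCh38 chr16:88803789-88809258, + strand), was at 191, 161, 175 and 204 CPM in Input Ctrl and at 429, 337, 284 and 278 CPM in Input siRNAG5. Every silenced library lay above every control library, and CDT1 rose by 0.87 ± 0.10 (SE) on the log2 scale (adjusted p = 2.36e-08). CDC6, the other loading factor, fell by 0.30 ± 0.06 (adjusted p = 4.19e-04), from 109 to 113 CPM in the controls to 87.3 to 92.4 CPM, again without overlap. ORC1 (0.16) and ORC6 (-0.12), subunits of the origin recognition complex, did not pass.

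The 6 subunits of the MCM2 to MCM7 ring, which act as 1 complex in equal numbers, differed in direction. MCM3 was at 135, 150, 137 and 152 CPM in Input Ctrl and at 180, 178, 181 and 175 CPM in Input siRNAG5, and rose by 0.33 ± 0.06 on the log2 scale (adjusted p = 1.46e-04) with no overlap. MCM5 went the other way, from 172, 208, 178 and 207 CPM to 171, 154, 170 and 148 CPM, and fell by 0.24 ± 0.07 (adjusted p = 0.0105). MCM2, at 173, 196, 185 and 209 CPM in the controls and 232, 202, 209 and 211 CPM after silencing, rose by 0.17 ± 0.07 (adjusted p = 0.0445), although the groups overlapped and the call held in 4 of 17 alternative analyses.
MCM4 (115, 112, 115 and 122 against 108, 109, 109 and 114 CPM), MCM6 (152, 169, 166 and 179 against 139, 154, 165 and 153 CPM) and MCM7 (539, 607, 580 and 606 against 639, 569, 583 and 551 CPM) overlapped between the treatments and did not pass.

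All 6 genes of helicase activation had a log2 fold change below 0, and 3 of them fell. GINS2, 1 of the 4 subunits of the GINS complex (ENSG00000131153, GRCh38 chr16:85676198-85690073, - strand), was at 342, 395, 365 and 334 CPM in Input Ctrl and at 264, 259, 279 and 260 CPM in Input siRNAG5. It fell by 0.43 ± 0.07 on the log2 scale (adjusted p = 5.86e-06), the largest fall of the 46. GINS1 was at 10.6, 10.7, 7.83 and 10.2 CPM and then at 7.19, 9.13, 7.92 and 6.89 CPM, which overlap, and its fall of 0.33 ± 0.13 (adjusted p = 0.0495) rests on few reads. MCM10, a scaffold of the active helicase, fell by 0.24 ± 0.09 (adjusted p = 0.031). GINS3 (-0.11), GINS4 (-0.02) and CDC45 (-0.05) did not pass.

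At the fork, clamp and polymerase genes were divided. PCNA was at 717, 744, 679 and 682 CPM in Input Ctrl and at 557, 624, 668 and 647 CPM in Input siRNAG5, all lower than the controls, and fell by 0.16 ± 0.06 on the log2 scale (adjusted p = 0.0414). Its partner PCLAF (ENSG00000166803, GRCh38 chr15:64364304-64387687, - strand) was at 3.58, 3.29, 2.93 and 2.94 CPM and then at 4.73, 8.32, 6.37 and 5.26 CPM, and rose by 0.96 ± 0.18 (adjusted p = 9.05e-05). PCLAF overlaps another gene on the same strand in GENCODE release 44, and so do MCM7, POLA2, PRIM1, POLD1, FEN1 and CHAF1B. Reads that fitted more than 1 gene were not counted, so the levels of these genes are uncertain. The counts were made on Ensembl release 91, and whether each overlap held there was not checked. In addition, 10 of the 46 genes have a named pseudogene that could share reads.
POLD1, the catalytic subunit of polymerase delta, was at 36.8, 45.1, 46.6 and 47.6 CPM in the controls and at 72.8, 61.5, 63.4 and 61.2 CPM after silencing. It rose by 0.57 ± 0.08 (adjusted p = 3.96e-06) with no overlap, whereas the accessory subunit POLD2 fell by 0.18 ± 0.06 (adjusted p = 0.0202). Polymerase epsilon showed the same division, as the catalytic POLE rose by 0.46 ± 0.09 (adjusted p = 2.83e-04) and the accessory POLE2 fell by 0.29 ± 0.08 (adjusted p = 0.0038).
In the primase and polymerase alpha complex, PRIM1, the catalytic primase subunit, rose by 0.26 ± 0.07 (adjusted p = 0.00408), POLA2 fell by 0.24 ± 0.07 (adjusted p = 0.00842), and POLA1 (0.00) and PRIM2 (0.09) did not pass. Of the clamp loader, RFC1, its large subunit, rose by 0.41 ± 0.10 (adjusted p = 0.002) and RFC2 fell by 0.17 ± 0.06 (adjusted p = 0.026), while RFC3, RFC4 and RFC5 did not pass.

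Ligation and nucleotide supply followed the same mixed course. LIG1, which seals Okazaki fragments, was at 30.5, 30.2, 29.5 and 35.7 CPM in Input Ctrl and at 53.8, 40.1, 44.02 and 37.0 CPM in Input siRNAG5, and rose by 0.48 ± 0.10 on the log2 scale (adjusted p = 2.26e-04). FEN1, the flap nuclease that acts before it, did not pass (-0.16). RRM1, the large subunit of ribonucleotide reductase, rose by 0.46 ± 0.07 (adjusted p = 2.43e-06), and its partner RRM2, whose level follows S phase, did not pass (-0.06). TK1 (thymidine kinase) fell by 0.29 ± 0.07 (adjusted p = 0.00138) and TYMS by 0.16 ± 0.06 (adjusted p = 0.036). Of RPA, which coats single-stranded DNA, RPA1 fell by 0.18 ± 0.07 (adjusted p = 0.0333), while RPA2 (-0.16) and RPA3 (-0.14) did not pass. CHAF1B, a subunit of the chromatin assembly factor that deposits histones behind the fork, fell by 0.20 ± 0.07 (adjusted p = 0.0363), and CHAF1A (0.16) and UHRF1 (-0.31), which maintains DNA methylation, did not pass.

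The G1/S regulators themselves were split as well. Cyclin E1 (CCNE1), which activates CDK2 at the start of S phase, was at 33.5, 37.7, 37.0 and 38.3 CPM in Input Ctrl and at 25.7, 27.7, 28.6 and 28.6 CPM in Input siRNAG5, and fell by 0.39 ± 0.08 on the log2 scale (adjusted p = 4.04e-04). CCNE2 was at 9.25, 10.3, 10.4 and 10.0 CPM and then at 6.99, 7.92, 8.17 and 8.36 CPM, and fell by 0.33 ± 0.12 (adjusted p = 0.0289). E2F1, the activator of many of these promoters, was at 46.4, 51.0, 55.0 and 52.4 CPM and then at 69.8, 59.6, 62.4 and 59.0 CPM, and rose by 0.30 ± 0.08 (adjusted p = 0.00273). None of the 3 overlapped between the treatments.

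**Figure D2:**
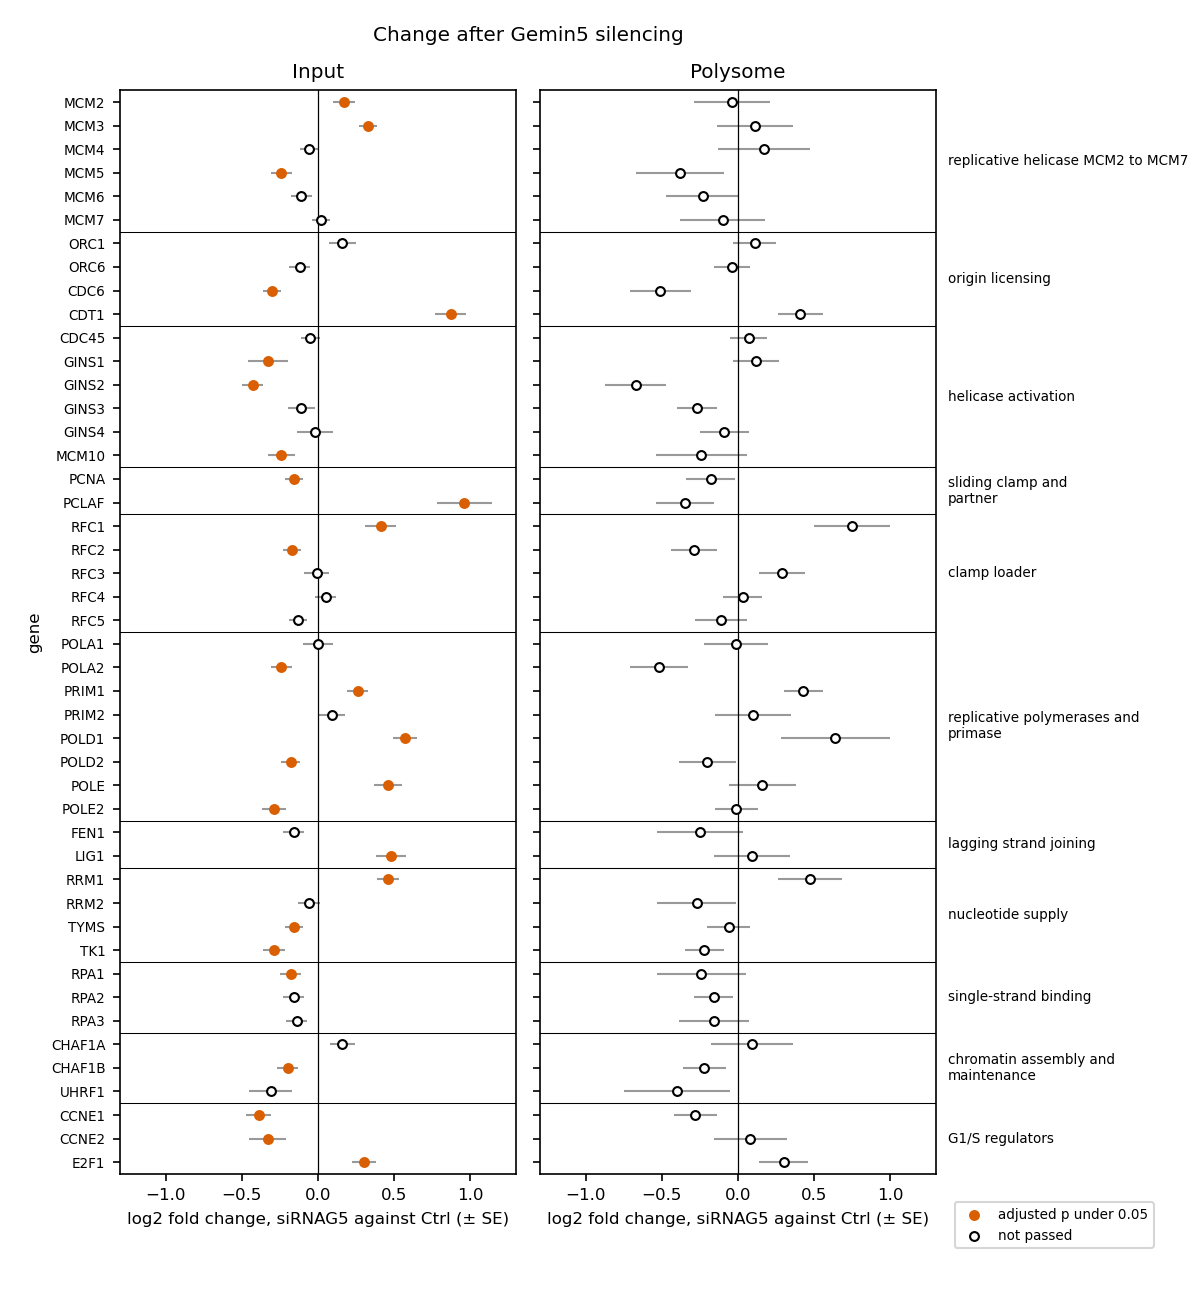
Log2 fold change of siRNAG5 against Ctrl (± SE, 4 libraries per group) for the 46 genes by role, in Input (left) and Polysome (right), with filled points for an adjusted p under 0.05. In Input 16 genes lie to the left and 11 to the right of 0 with filled points, from -0.43 (GINS2) to 0.96 (PCLAF), and in Polysome no point is filled and the errors are wider.

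The size of these counts depended on single libraries and on the fit. Without Input Ctrl 2, 8 of the 46 fell and 11 rose, against 15.9% and 13.5% of all genes tested, and without Input siRNAG5 2, 9 fell and 11 rose, against 16.9% and 16.3%. Input Ctrl 3 and 4, the Input libraries with high liver gene sums, were also both left out. Then 7 fell and 9 rose, against 15.1% and 13.1% of all genes tested. The share that fell was then near that of all genes, and the part of the liver gene reads in the counts was otherwise not tested. Every Polysome Ctrl library held 86.7 to 179 CPM of liver genes, and no siRNAG5 library exceeded 1.87 CPM. In Polysome these reads therefore cannot be told apart from the treatment by leaving libraries out. With all 16 libraries in 1 fit, where the wider spread of the Polysome libraries enters the error, only CDT1 and PCLAF rose and only GINS2 and CCNE1 fell, against 7.76% and 8.58% of all genes tested that rose and fell. These 4 passed in all 17 alternatives, and MCM3, RFC1, POLD1, POLE, LIG1, RRM1 and E2F1 (rising) and CDC6, POLE2 and TK1 (falling) in 16 of 17.

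**Figure D3:**
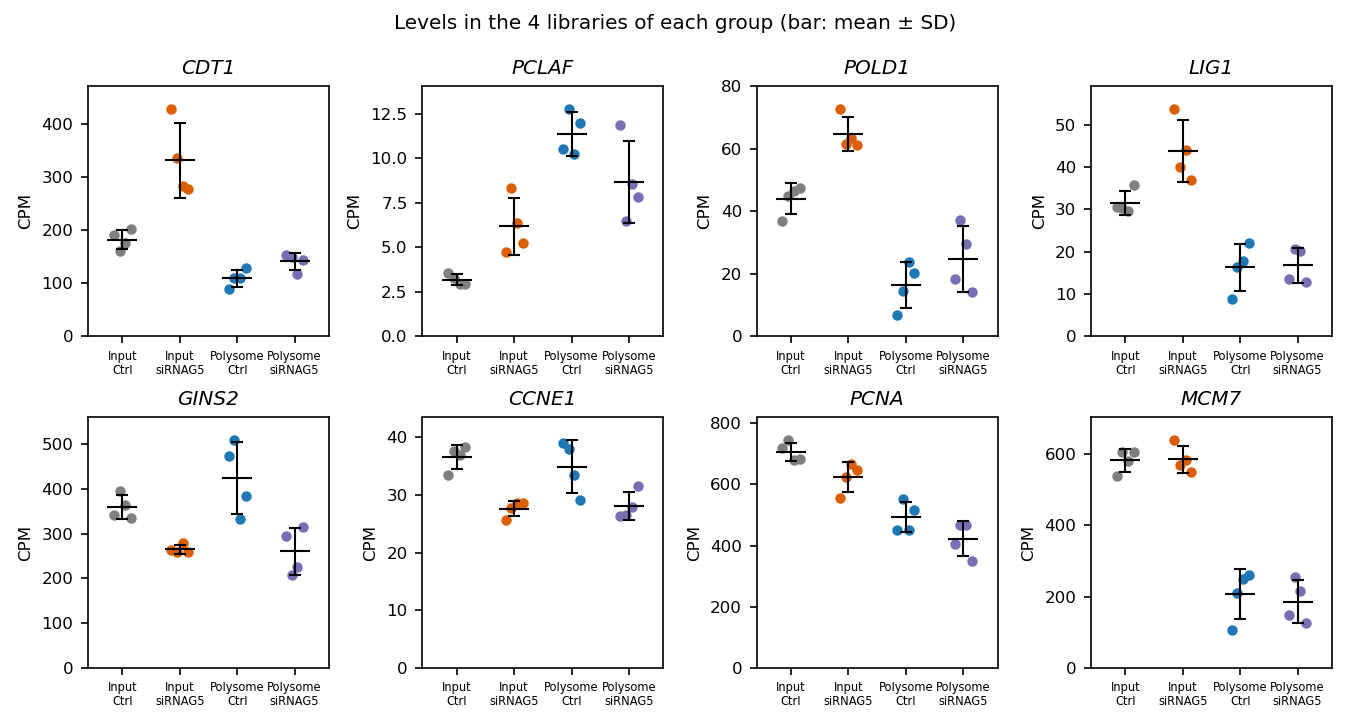
CPM of 8 genes in the 4 libraries of each group (points), with the mean and SD (bars), on linear axes from 0. For CDT1, PCLAF, POLD1 and LIG1 all Input siRNAG5 points lie above all Input Ctrl points, for GINS2, CCNE1 and PCNA below them, and for MCM7 the Input points overlap between 539 and 639 CPM.

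In Polysome no member passed with siRNAG5 against Ctrl, where 4.09% of the 14420 genes tested fell and 4.02% rose. The median log2 fold change of the 46 was -0.08, against 0.03 over all genes. At an unadjusted p under 0.05 3 of the 46 were lower and 4 higher, against 1922 and 2077 of the 14420 genes tested. The spread was wider there, with a median SE over the 46 genes of 0.20 in Polysome and 0.07 in Input. In counts simulated on this design edgeR recovered 74 of 100 genes changed 2-fold in Polysome and 99 of 100 in Input. Genes were drawn independently there, without the split between the Polysome libraries, so the recovery in the real libraries is not known. All 27 changes that passed in Input were smaller than 2-fold. The 4 libraries of siRNAG5 lay entirely below those of Ctrl for GINS2 and entirely above them for PRIM1, against 10% and 8.29% of all genes. GINS2 was at 475, 509, 334 and 384 CPM in Polysome Ctrl and at 295, 207, 226 and 315 CPM in Polysome siRNAG5, a log2 fold change of -0.67 ± 0.20 (adjusted p = 0.0559). PRIM1 was at 31.1, 34.6, 33.8 and 38.7 CPM and then at 50.9, 44.7, 43.9 and 41.1 CPM, a log2 fold change of 0.43 ± 0.13 (adjusted p = 0.0569).

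Several alternative fits gave more calls in Polysome, among the 46 genes and among all genes. With 1 surrogate variable, an estimated factor for unlabelled variation, 12 of the 46 fell and 6 rose, against 18.1% and 15.3% of all genes tested, among them GINS2, CDC6, POLA2 and MCM5 falling and CDT1, RFC1, PRIM1, POLD1, RRM1 and E2F1 rising. With Polysome Ctrl 1, siRNAG5 1 and siRNAG5 4 left out, GINS2, CDC6 and PCLAF fell and RFC1, POLD1 and RRM1 rose, so that 3 of 46 passed in each direction against 13.2% and 9.98% of all genes tested. With all 16 libraries in 1 fit 6 fell and 2 rose, against 14.4% and 8.89%, and with an offset for transcript length 4 fell and 1 rose, against 8.02% and 6.76%. DESeq2 called GINS2 lower and PRIM1 higher, where 1389 of 27384 genes were lower and 864 higher. GINS2 also fell without Polysome Ctrl 3 or without siRNAG5 4, against 3.97% and 5.79% of all genes tested. RFC1 and PRIM1 rose without siRNAG5 4, against 4.76%. Of the 16 genes that fell in Input, 14 had a log2 fold change below 0 in Polysome, and of the 11 that rose, 9 had one above 0. How often all genes kept their sign was not counted.

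Subtracting the Input change from the Polysome change asks whether silencing altered polysome association beyond mRNA level. No member passed, nor did any of the 14958 genes tested (0% lower, 0% higher). At an unadjusted p under 0.05 2 of the 46 were lower and 0 higher, against 701 and 388 of the 14958 genes. The largest difference was that of PCLAF, whose log2 fold change was 1.35 ± 0.28 lower in Polysome than in Input (adjusted p = 0.227). PCLAF stood at 10.49, 12.8, 10.2 and 12.0 CPM in Polysome Ctrl and at 11.8, 6.47, 8.54 and 7.79 CPM in Polysome siRNAG5, which overlap. DESeq2 (adjusted p = 0.0129) and the fit without a filter on low counts (adjusted p = 0.00398) called this difference. For CDT1 it was -0.50 ± 0.20 (adjusted p = 0.588).

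Polysome against Input within one treatment describes which mRNAs were enriched in the heavy fractions. In Ctrl cells 24 of the 46 genes were lower in Polysome and 6 were higher, against 23.2% and 24.3% of the 13666 genes tested, and 18 and 5 of them by more than 0.5 on the log2 scale, against 18.8% and 20.8%. The median over the 46 was -0.35, against -0.03 over all genes tested. Of the lists described below, 54 G2/M markers were close to the 46, with 26 lower and 7 higher (median -0.25). Of 35 other replication factors 9 were lower and 6 higher, of 24 further S-phase markers 6 and 6, and of 30 other G1/S regulators 3 and 15. Values are relative to the other mRNAs of a fraction, since both fractions were scaled to a common composition and no total amount was measured.

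All 6 subunits of the helicase ring were lower in Polysome Ctrl. MCM7, at 107, 210, 249 and 261 CPM there, was 1.49 ± 0.21 lower than in Input on the log2 scale (adjusted p = 2.85e-05), and MCM2, at 48.3, 60.0, 80.5 and 101 CPM, was 1.39 ± 0.18 lower (adjusted p = 1.48e-05). The other 4 differed by -0.71 (MCM4) to -1.19 (MCM3). None of the Polysome Ctrl libraries reached the lowest Input Ctrl library for any of these genes, and Polysome Ctrl 1 was the lowest each time.
All 4 licensing factors were lower too, by 0.35 (ORC6) to 0.99 (ORC1). Of the 8 polymerase and primase genes 7 were lower, most of all POLD1, which was at 6.91, 14.6, 23.9 and 20.3 CPM and differed by -1.40 ± 0.25 (adjusted p = 2.22e-04). RRM1 (-1.03), LIG1 (-0.94), CDC45 (-0.57), E2F1 (-0.54), PCNA (-0.50), RFC4 (-0.49) and CHAF1B (-0.35) complete the genes that were lower.

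The GINS complex stood opposite to the ring it binds. GINS1 was at 25.1, 33.7, 36.5 and 32.6 CPM in Polysome Ctrl, above every Input Ctrl library, and was 1.71 ± 0.15 higher on the log2 scale (adjusted p = 3.90e-07). GINS4 was 1.40 ± 0.15 higher (adjusted p = 3.20e-06) and GINS3 0.93 ± 0.12 higher (adjusted p = 1.27e-05), whereas GINS2 did not pass (0.26). PCLAF was 1.84 ± 0.16 higher (adjusted p = 4.48e-07), UHRF1 0.82 ± 0.23 higher (adjusted p = 0.00879) and RFC3 0.44 ± 0.12 higher (adjusted p = 0.00681). The 3 genes of RPA did not pass, at -0.20 to 0.04.

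The silenced cells gave a like order. In siRNAG5 cells 21 of the 46 were lower in Polysome and 7 higher, against 25.2% and 27% of the 14795 genes tested, with a median of -0.31 against -0.04. Of the 54 G2/M markers 20 were lower and 9 higher, of the 35 other replication factors 8 and 7. Of the 24 S-phase markers 5 were lower and 10 higher, and of the 30 G1/S regulators 3 and 17. Side by side, 20 of the 46 genes were lower and 5 higher in both treatments. How many of all genes passed in both was not counted, so this overlap has no share to set beside it. MCM7 differed by -1.57 ± 0.21, MCM2 by -1.56 ± 0.19, POLD1 by -1.29 ± 0.25, GINS1 by 2.20 ± 0.14 and GINS4 by 1.36 ± 0.14, with values of adjusted p from 7.05e-07 (GINS1) to 0.00111 (POLD1). MCM4 (-0.44), ORC6 (-0.22), POLE2 (-0.25), PRIM2 (-0.41) and UHRF1 (0.77) passed in Ctrl alone, and RFC1 (0.79), CCNE2 (0.50) and RFC2 (-0.29) in siRNAG5 alone, but no difference between the treatments passed, as given above. PCLAF was 0.57 ± 0.22 higher in siRNAG5.

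Transcript features moved with this measure to a limited degree. Across the 46 genes, Spearman's rho of the Polysome against Input log2 fold change in Ctrl was -0.31 with GC content and -0.13 with transcript length, against -0.16 and 0.41 over 13628 genes, and genes of one pathway are not independent points. With an offset for GC content 23 genes remained lower and 6 higher in count, and with one for length 22 and 6. Of all 13666 genes tested, 3045 were lower and 3266 higher with the GC offset, and 3210 and 3221 with the length offset. GC content of the 46 ranged from 34.6 to 64.8%, and the share of multiply aligned reads, given above, moved with the fraction. Its part in the result was not tested.

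Whether a smaller share of cells in S phase could underlie lower histone mRNAs was read against further gene lists. No cell cycle profile is part of the count tables, so the S-phase share itself was not measured and its part was not tested. Of 65 replication-dependent histone genes, 31 had enough reads to be tested in Input, where 10 fell and 0 rose, with a median log2 fold change of -0.36. Over all genes tested in Input 19.1% fell and 17.9% rose, with a median of 0.04. In Polysome 9 of 36 histone genes fell and 0 rose, with a median of -0.83. Over all genes tested there 4.09% fell and 4.02% rose, with a median of 0.03. Summed, these genes held 215, 262, 232 and 231 CPM in Input Ctrl and 178, 157, 178 and 155 CPM in Input siRNAG5, without overlap, while the 46 replication genes held 6090 to 6436 CPM and then 5853 to 6136 CPM, which overlap. The sums of the 4 other cell cycle lists in Input also lay apart, at 2821 to 3050 CPM in Ctrl and 2416 to 2587 CPM in siRNAG5 for 35 other replication factors, 1461 to 1548 and 1278 to 1452 CPM for 24 S-phase markers, 6139 to 6642 and 5320 to 5799 CPM for 54 G2/M markers, and 2434 to 2569 and 2033 to 2065 CPM for 30 G1/S regulators. Such sums are set by their most abundant genes. In Polysome the histone sums were 336, 389, 246 and 284 CPM in Ctrl and 266, 170, 123 and 198 CPM in siRNAG5, which overlap. Since the libraries were made from polyadenylated RNA and these histone mRNAs mostly end in a stem-loop without a poly(A) tail, the counts cover only the part that was captured. The histone counts rested on single libraries and on the fit. In Polysome no histone gene passed without Ctrl 2, 5 fell without Ctrl 1, 4 without siRNAG5 2 or siRNAG5 3, and 18 with Ctrl 1, siRNAG5 1 and siRNAG5 4 left out, while the replicate block gave 15. In Input 3 fell with all 16 libraries in 1 fit, and 7 fell and 1 rose without Ctrl 3 and 4. The share of all genes tested moved too. In Polysome 0.768% fell without Ctrl 2, 2.89% without Ctrl 1 and 1.68% without siRNAG5 2 or siRNAG5 3. It was 13.2% with Ctrl 1, siRNAG5 1 and siRNAG5 4 left out and 3.87% with the replicate block. In Input 8.58% fell with all 16 libraries in 1 fit, and 15.1% fell and 13.1% rose without Ctrl 3 and 4.

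Single histone genes differed among themselves. H2BC12, the most abundant, was at 79.6, 106, 85.5 and 85.4 CPM in Input Ctrl and at 44.3, 42.9, 53.1 and 45.7 CPM in Input siRNAG5, and fell by 0.93 ± 0.09 on the log2 scale (adjusted p = 1.72e-09). H2AC25 fell by 0.29 ± 0.08 (adjusted p = 0.00331), and the linker histone H1-2 did not pass (-0.05). In Polysome H2BC12 fell by 1.02 ± 0.18 (adjusted p = 0.0106) and H2AC25 by 1.06 ± 0.23 (adjusted p = 0.0197).

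Other genes of the cycle were mixed in Input, like the 46. The shares to set beside the counts are 19.1% of all genes tested that fell and 17.9% that rose. Of 35 other replication factors 15 fell and 6 rose (median -0.13), led by POLE4, a histone-fold subunit of polymerase epsilon, which fell by 0.81 ± 0.08 (adjusted p = 3.07e-09), and TIPIN, of the fork protection complex, which fell by 0.67 ± 0.08 (adjusted p = 1.95e-07). The helicase RECQL4 rose by 0.66 ± 0.11 (adjusted p = 2.03e-05) and WDHD1 by 0.64 ± 0.10 (adjusted p = 8.51e-06). Of 24 further S-phase markers used to score single cells, some of them also in the former list, 3 fell and 5 rose (median -0.07), with GMNN (geminin, the inhibitor of CDT1) falling by 0.32 ± 0.07 (adjusted p = 9.12e-04), and CASP8AP2 rising by 0.60 ± 0.19 (adjusted p = 0.0132) and CDCA7 by 0.44 ± 0.08 (adjusted p = 3.87e-05).
Of 54 G2/M markers 12 fell and 12 rose (median 0.01), with CDCA3 falling by 0.54 ± 0.07 (adjusted p = 7.93e-07), TUBB4B by 0.52 ± 0.07 (adjusted p = 3.64e-07), TOP2A rising by 0.94 ± 0.08 (adjusted p = 2.31e-10) and KIF20B by 0.70 ± 0.13 (adjusted p = 1.24e-04). Of 30 other G1/S regulators 8 fell and 4 rose (median -0.02). The fit of all 16 libraries left 5 and 2 of the replication factors, 1 and 0 of the S-phase markers, 4 and 7 of the G2/M markers and 3 and 2 of the regulators. Over all genes tested, that fit called 8.58% lower and 7.76% higher. Among the S-phase markers, leaving out 1 library gave 3 to 5 lower and 2 to 6 higher. With 1 library left out, 15.9 to 18.9% of all genes tested were lower and 13.5 to 17.8% higher.

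Among the G1/S regulators, CDKN1A and CCND1 were chosen by name and the others are the largest changes of the list in Input. CDKN1A (p21), which blocks cyclin E with CDK2 and binds PCNA, was at 41.1, 32.9, 36.7 and 41.6 CPM in Input Ctrl and at 67.9, 53.8, 56.3 and 56.1 CPM in Input siRNAG5, and rose by 0.64 ± 0.09 on the log2 scale (adjusted p = 9.64e-07) in Input and by 0.61 ± 0.13 (adjusted p = 0.0218) in Polysome. CDKN1C (p57) rose by 0.65 ± 0.15 (adjusted p = 9.78e-04) in Input. In the same fraction TFDP1, the partner of E2F1, fell by 0.70 ± 0.07 (adjusted p = 6.14e-09), SKP2, which directs the degradation of CDK inhibitors, by 0.47 ± 0.07 (adjusted p = 3.48e-06), and cyclin D1 (CCND1) by 0.35 ± 0.12 (adjusted p = 0.0165). In Polysome these 4 genes did not pass, with log2 fold changes of -0.14 (CDKN1C), -0.05 (TFDP1), -0.11 (SKP2) and -0.33 (CCND1).
In Polysome 3 of the 35 replication factors and 1 of the 24 S-phase markers fell and none rose, while 1 of the 54 G2/M markers and 1 of the 30 G1/S regulators rose and none fell. Over all genes tested 4.09% fell and 4.02% rose. None of the calls on the first 2 lists was made without Ctrl 2, siRNAG5 1 or siRNAG5 3. In these fits 0.768%, 1.74% and 1.68% of all genes tested fell.

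**Figure D4:**
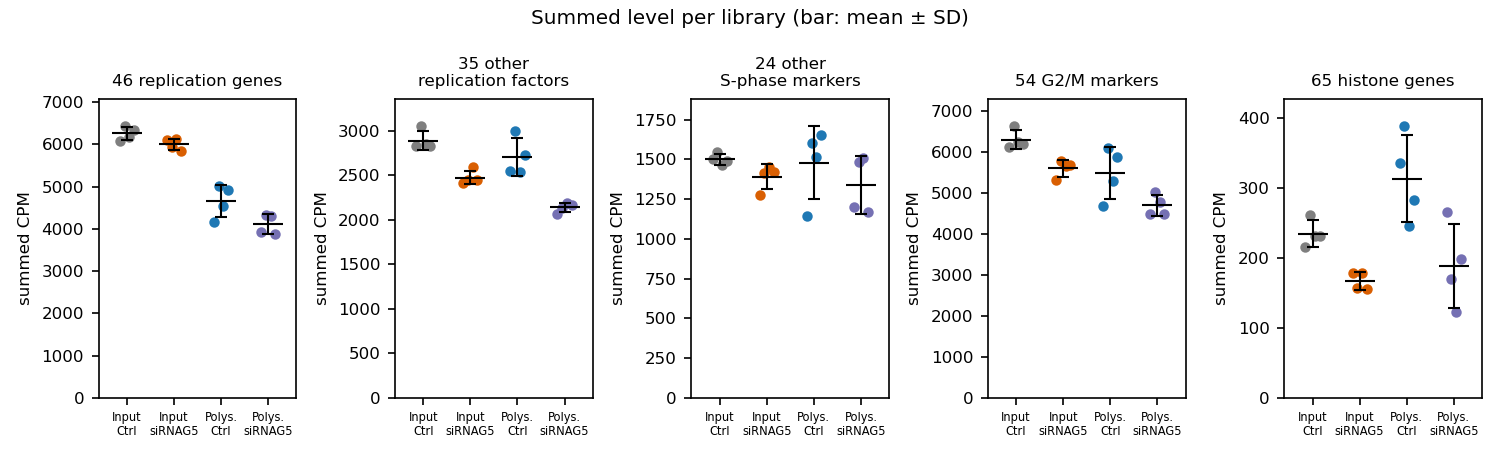
Summed CPM per library (points) with the mean and SD (bars) for the 46 replication genes, 35 other replication factors, 24 S-phase markers, 54 G2/M markers and 65 replication-dependent histone genes in the 4 groups, on linear axes from 0. In Input the histone points separate (155 to 178 CPM after silencing, 215 to 262 CPM in Ctrl), those of the 46 genes overlap between 5853 and 6436 CPM, and those of the other 3 lists lie lower after silencing without overlap.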

How the data were processed

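RNA of 16 HEK293 samples was sequenced. Per the labels and the study's methods, the authors aligned stranded paired reads to GRCh38 (Ensembl release 91) with STAR 2.5.3a, and used QoRTs to obtain counts per gene, which were deposited as whole numbers with no normalization. Reads aligned to several places or to more than 1 gene were listed apart and left out of library sizes here, at 4.88 to 42.4% and 4.14 to 7.41% of a library, as were those on no gene at 0.667 to 1.33%. Depth was 11145324 to 24511299 reads on genes per library. Groups and replicates came from the sample labels, which were not stated to pair the samples across groups.

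Members, lists and rules were chosen with earlier results of these data known, so no list count is independent support. The members are the listed symbols, and values in every library were given for the 4 largest falls and rises in Input, MCM2 to MCM7, PCNA, CCNE1, CCNE2 and E2F1. Outside them, GEMIN5, CDKN1A, CCND1, the 3 most abundant histone genes and the 2 largest changes per direction of each list were named. PRIM1 in Polysome was named after its values were seen.

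Genes were named and placed with GENCODE release 44. Each comparison was fitted on its own libraries (all 16 for the difference between fractions) by the quasi-likelihood test of edgeR 4.0.16 (R 4.3.3) after filterByExpr and TMM, with Benjamini-Hochberg adjustment over all genes tested. Alternatives were DESeq2 1.42.0, RLE size factors, no filter, the replicate block, all 16 libraries in 1 fit, 1 surrogate variable (sva 3.50.0) and each library left out. Chosen after seeing the data were offsets for GC content and transcript length and the 2 fits without the libraries that stood apart. CPM used TMM factors over the 16 libraries. The edgeR steps were tested on simulated data in which 100 genes changed 2-fold and 100 changed 4-fold, with each gene drawn independently. The chi-square per degree of freedom between libraries of a group was 3.17 to 91.3 over 24 pairs, so that no pair was a repeated library. P-values measure the spread between these samples. The planned scan of protein sequences for PCNA-binding motifs was not run. Figures used Python 3.11.15, pandas 2.3.3, numpy 2.4.6 and matplotlib 3.10.9.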

Additional observations from a re-analysis of the deposited data

Results flagged for a closer look

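Among 184 sets of 4 libraries (46 genes in 4 groups), 6 (3.26%) held a library far from the other 3 of its group. Chance alone gives about 1 in 20 for independent sets. These genes share the same libraries and are not independent, so that rate cannot decide whether chance accounts for the 6. In Polysome Ctrl 1, CDC6 stood at 55.4 CPM against 92.0 to 94.4 CPM in the other 3 libraries, RFC5 at 91.2 against 135 to 137 CPM, and RFC3 at 58.5 against 77.97 to 81.8 CPM. In Input siRNAG5 1, RFC3 stood at 43.8 against 55.9 to 58.5 CPM and GINS3 at 18.6 against 20.1 to 20.5 CPM. In Input Ctrl 3, GINS1 stood at 7.83 against 10.2 to 10.7 CPM. All 6 were the lowest of their group. Polysome Ctrl 1 is also the library with the highest score on the first principal component of its fraction.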

How the results depend on the processing

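Counts are given as members lower and higher. In Input (16 and 11 in the main analysis), the lower count changed to 8 with no filter on low counts, both counts to 2 with all 16 libraries in 1 fit, and the lower to 7 without Input Ctrl 3 and 4, while leaving out 1 library gave 8 to 16 lower and 10 to 11 higher. In Polysome (0 and 0), they were 1 and 1 with DESeq2 and with no filter, 6 and 2 in the fit of all 16 libraries, 12 and 6 with 1 surrogate variable, 4 and 1 with the length offset, 3 and 3 without Polysome Ctrl 1, siRNAG5 1 and siRNAG5 4, and 0 to 1 and 0 to 2 with 1 library left out. For the difference between fractions (0 and 0) DESeq2 and no filter each gave 1 lower, PCLAF, and leaving out 1 library gave 0. Polysome against Input stayed within 1.5 times in every alternative, at 20 to 26 lower and 6 to 7 higher in Ctrl and 19 to 23 and 5 to 8 in siRNAG5 with 1 library left out. With no filter, 9.48% of all genes tested fell and 10.1% rose in Input, and 3.44% and 3.01% in Polysome. The causes were not tested beyond what each alternative leaves out.

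Over single members, 1 sign reversed with a call, TYMS in siRNAG5 Polysome against Input, at 0.25 with the length offset. In Input, of 782 values over 17 alternatives, 104 lost and 15 gained a call. Signs of values that passed in neither analysis changed in 20 cases for Input, in 56 for Polysome and in 97 for the difference.

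The replicate block gave 14 and 10 in Input, 0 and 0 in Polysome, 24 and 6 in Ctrl and 21 and 6 in siRNAG5. Same-numbered libraries had correlations of -0.61 to 0.55, 6 of 16 over 0.1, and 5 of 16 correlated best with their own number, so they were not taken as pairs. PCLAF rested on few reads, with 144 in Input Ctrl, and whether depth or its overlap with another gene limits it was not tested.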
